A study of Mus musculus with 8 samples.

Results

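The genes described here are 10 components and targets of the canonical Wnt pathway in intestinal crypts, taken by symbol from the 34745 genes of each deposited table. Of these 10 genes, 4 carry or receive the signal: Ctnnb1, Tcf7l2, Lgr4 and Fzd5. The other 6 are genes that Wnt signalling is known to drive in crypts: Myc, Cd44, Ccnd1, Sox9, Ephb3 and Sox4. The 8 libraries were made from crypts of wild-type C57BL/6 mice on day 5, with 4 libraries from mice given dextran sulfate sodium (DSS) and 4 from mice given DSS and CA (DSS+CA). CA is named in full, as cholic acid, only in the title of the series. DSS is a chemical used to damage intestinal epithelium and provoke colitis. Both groups were given it and no group without DSS is analysed here, so injury in these crypts could not be gauged. The labels give no gut segment, dose, route, sex or age, and do not say whether the libraries are separate animals, so each p-value speaks to the scatter of these samples alone, and that scatter may be technical. The comparison asked how these genes stood in crypts of mice given DSS and cholic acid, against mice given DSS.

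The Wnt pathway keeps the stem cells at the crypt base dividing. Without a Wnt ligand, a destruction complex marks beta-catenin for breakdown. When a ligand engages a Frizzled receptor and its co-receptor, and R-spondin engages an LGR receptor, beta-catenin accumulates, enters the nucleus and binds TCF factors at target genes. In the gut, the signal is strongest at the crypt base and falls toward the surface, and its targets include cell cycle genes, the Eph receptors that sort cells along the crypt axis, and transcription factors of progenitor and Paneth cells.

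The libraries held between 13334012 and 17973196 counts each. They also differed along an axis that cuts across both groups, the mean length of a counted gene. It was the library total divided by the sum over genes of the count per base of length. The length used was the one implied by the deposited FPKM, described below. That mean ran from 1423 to 2412 bases, and DSS 2, DSS+CA 3 and DSS 3 were the 3 libraries with the shortest. Epithelial identity was checked with markers. Epcam, the pan-epithelial adhesion molecule, held at least 21233 counts in every library, whereas the fibroblast collagen Col1a1 held at most 6. On the scale of CPM (the count relative to the library total, scaled by TMM, the trimmed mean of M-values), summed fibroblast, endothelial and smooth muscle markers reached at most 11.6, 3.23 and 4.27. Of the fibroblast markers, Vim held 29 to 104 counts. Immune RNA was present: summed T and NK cell, B and plasma cell, and myeloid markers reached 648, 70 and 151 CPM. B and plasma cell markers lay at 30.3 to 70 CPM in DSS and 7.45 to 22.5 CPM in DSS+CA. Myeloid markers lay at 33.8 to 151 CPM in DSS and 8.24 to 39.8 CPM in DSS+CA. The segment markers were those of small intestine rather than colon, with the brush border disaccharidase Sis at 30419 counts or more and the colonic carbonic anhydrase Car1 at 0 counts in every library, which allows up to 3 per library from counting error alone.

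None of the 10 genes passed the test between DSS+CA and DSS. With the quasi-likelihood test of edgeR, the count was 0 of 10 at an adjusted p of 0.05 and 0 of 10 at an unadjusted p of 0.05, and DESeq2 also called 0. Over all 9913 tested genes the shares called were 0.131% (0.0404% higher and 0.0908% lower) and 7.82%, so counts of 0 among 10 lay near the background. Log2 fold changes of the 10 genes ran from -0.38 to 0.49, with 7 above 0 and 3 below 0. All 6 targets were above 0, with a median of 0.23, although 3 of the 6 (Sox9, Ephb3 and Sox4) were below 0 with the counted gene length of the library as a covariate, Sox9 and Sox4 also without the 3 libraries of shortest counted genes, and Ephb3 also with upper quartile scaling. The 4 receptors and transducers had a median of -0.12. Over all tested genes the median was 0.02 and 51.9% were above 0. Tcf7l2 and Ephb3 did not pass the expression filter described below, so their values come from the fit with no filter. That fit has its own scaling, and the median of the same tested genes there was 0.08, as was the value of Ephb3. With a filter on merged exon length, Ephb3 was at 0.007. The numbers of genes above 0 thus mix 2 scalings, and the sign of Ephb3 carries little weight. The 95% intervals of single genes had a median width of 1.57 on the log2 scale and together spanned folds from 0.43 to 2.18. Changes of about 2-fold in several of these genes therefore lay inside the intervals, and a missed threshold does not show that levels were alike.

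**Figure D1:**
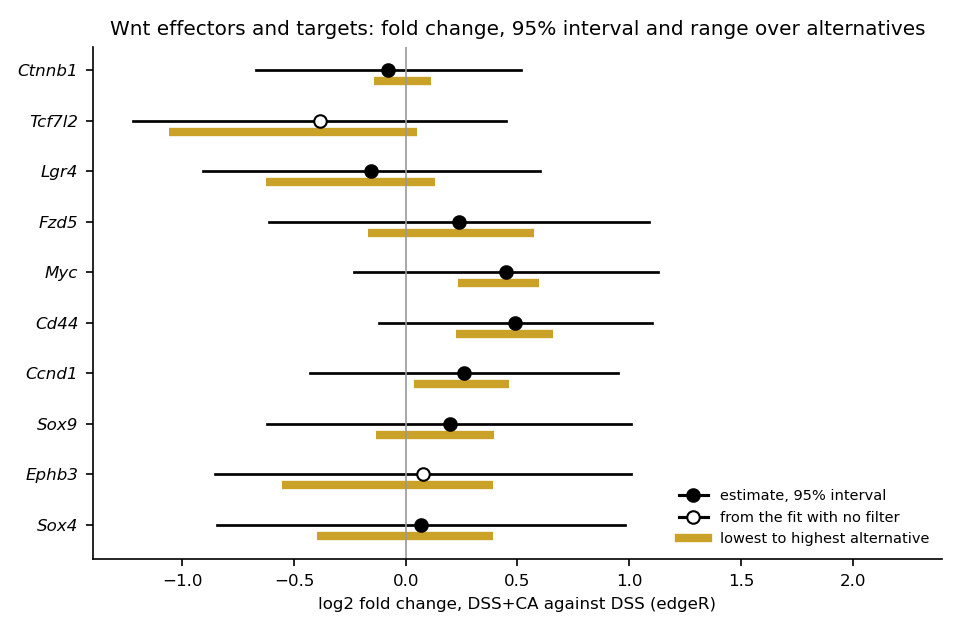
Log2 fold change of DSS+CA against DSS (x axis) for each of the 10 genes (y axis). Points are edgeR estimates, black lines their 95% intervals, open points come from the fit with no expression filter, and yellow bars run from the lowest to the highest value over all alternative settings. Every 95% interval crosses 0, and the yellow bars of Myc, Cd44 and Ccnd1 lie wholly above 0.

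Per length of exon, Ctnnb1 was by far the most abundant of the 10 genes and Ephb3 the least. Levels between genes were compared as TMM-scaled CPM divided by the merged exon length in kilobases. Ctnnb1 stood at 91.7 ± 9.0 in DSS and 86.9 ± 8.72 in DSS+CA (SD, n = 4), between 4.21 and 15.8 times the level of Fzd5, the next gene, in single libraries. Fzd5, Ccnd1 and Lgr4 followed with means over the 8 libraries of 13.1, 13 and 11.1. Those 3 could not be ordered, since Fzd5 was above Ccnd1 in 4 of 8 libraries and Ccnd1 above Lgr4 in 4 of 8. Myc came next at 6.97, below Lgr4 in 7 of 8 libraries and above Sox4 in 8 of 8. The lowest group held Sox4 at 3.07, Sox9 at 2.86, Cd44 at 2.35, Tcf7l2 at 1.54 and Ephb3 at 1.14. Neighbours within that group changed places in 1 to 3 of the 8 libraries.

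**Figure D2:**
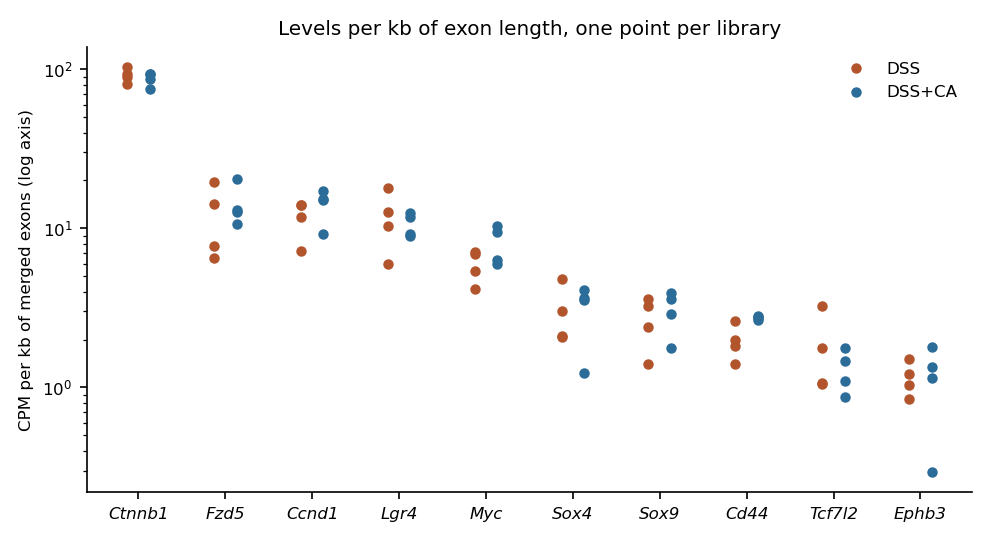
CPM per kilobase of merged exons on a log axis (y axis) for the 10 genes (x axis), ordered by their mean over the 8 libraries, with 1 point per library. Ctnnb1 lies above every other gene in all 8 libraries, and DSS+CA 3 gives the lowest points of Ephb3 and Sox4.

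The deposited FPKM values gave another order. Each implies a gene length, and that length counted overlapping exons of different transcripts separately for many genes: it lay within 1% of the sum of distinct exons in 14226 of 19360 genes, and within 1% of the merged exons in 4431. Myc was the gene most affected here. Its implied length was 9933 bases against 2717 of merged exon, a ratio of 3.66, which moved it from place 5 to place 7 in the order. For Tcf7l2, with 22 annotated transcripts, the ratio was 2.50. The expression filter of FPKM at least 1 in at least 4 libraries left out Tcf7l2, which reached it in 1 library, and Ephb3, which reached it in 3. With merged exons those counts were 6 and 5. Values of these 2 genes therefore come from the fit with no filter over 19457 genes, where 0.406% were called (0.0925% higher and 0.314% lower) and 9.11% had an unadjusted p below 0.05. The groups overlapped for both genes, whereas they did not for 5.67% of all genes there (2.01% with DSS+CA higher).

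Of the signal carriers, Ctnnb1 encodes beta-catenin, which links cadherins to the cytoskeleton and is the transcriptional coactivator of the pathway. The gene (ENSMUSG00000006932) lies on chromosome 9 from 120929216 to 120960507 on GRCm38. It stood at 483, 533, 420 and 467 CPM in DSS 1 to 4. In DSS+CA 1 to 4 it stood at 449, 484, 484 and 388 CPM. The groups overlapped, the highest library was 1.38 times the lowest, and Ctnnb1 had the smallest spread of the 10 genes. The log2 fold change was -0.08 (SE 0.27, 95% interval -0.67 to 0.52, edgeR adjusted p = 0.999).

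Fzd5 encodes a Frizzled receptor of intestinal epithelium, on chromosome 1 from 64730558 to 64737751 (ENSMUSG00000045005). It stood at 135, 45.0, 53.6 and 99 CPM in DSS 1 to 4. In DSS+CA it stood at 142, 89.8, 73.4 and 87.9 CPM. DSS 2 and DSS 3 lay below all 4 DSS+CA libraries, while DSS 1 and DSS 4 lay among them. The log2 fold change was 0.24 (SE 0.389, 95% interval -0.61 to 1.09, edgeR adjusted p = 0.991). It turned to -0.17 without the 3 libraries of shortest counted genes.

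Lgr4 encodes a receptor for R-spondins that is expressed through much of the crypt, on chromosome 2 from 109917647 to 110014257 (ENSMUSG00000050199). Its levels were 106, 60.4, 35.1 and 74.7 CPM in DSS 1 to 4. In DSS+CA 1 to 4 they were 73.3, 52.3, 68.6 and 53.9 CPM. Both extremes belonged to DSS, and the DSS+CA libraries lay between them. The log2 fold change was -0.15 (SE 0.343, 95% interval -0.91 to 0.60, edgeR adjusted p = 0.998), turned to 0.13 without DSS 1 and was -0.63 without the 3 libraries of shortest counted genes.

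Tcf7l2 encodes the main TCF factor of intestinal epithelium, the partner through which beta-catenin reaches its target genes. The gene (ENSMUSG00000024985) lies on chromosome 19 from 55741810 to 55933654. It stood at 28.4, 9.23, 9.43 and 15.6 CPM in DSS 1 to 4. In DSS+CA 1 to 4 it stood at 9.61, 7.66, 15.4 and 12.9 CPM. DSS 1 was above all other libraries, and of the others DSS 2 and DSS 3 lay within the range of DSS+CA and DSS 4 just above it. In the fit with no filter the log2 fold change was -0.38 (SE 0.399, 95% interval -1.22 to 0.45, edgeR adjusted p = 0.754), and without DSS 1 it was 0.05. Without the 3 libraries of shortest counted genes it was -1.06, and this was the only setting in which any of the 10 genes was called (edgeR adjusted p = 0.0228). In that fit, which set 2 DSS libraries against 3 of DSS+CA, 9.06% of all genes were called and 5.37% were called lower.

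TCF factors and SOX factors both recognise sequences built around the letters CTTTG, or CAAAG on the other strand. Those 5 letters were searched on both strands in the RefSeq windows of 300 bases on GRCm38.p6, from 250 before to 50 after each start site. Of the 10 genes, 7 had a window and 2 of these, Tcf7l2 and Cd44, held a match. By window, 3 of the 9 windows of these 7 genes held one, against 53.9% of all windows in the table. One window of Tcf7l2 and that of Cd44 are shown because Tcf7l2 is the factor itself and Cd44 is the target whose groups did not overlap. The matches are in capitals, the strand is that of the gene, and a match is a description of the letters, not a binding site.

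Tcf7l2, chr19:55741560-55741859, plus strand, match starting at -111 from the start site: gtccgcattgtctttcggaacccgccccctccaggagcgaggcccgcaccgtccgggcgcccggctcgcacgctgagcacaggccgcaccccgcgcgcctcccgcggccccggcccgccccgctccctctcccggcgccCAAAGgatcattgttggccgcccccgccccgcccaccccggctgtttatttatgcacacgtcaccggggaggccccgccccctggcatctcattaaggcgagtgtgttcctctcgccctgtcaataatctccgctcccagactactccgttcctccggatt

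Cd44, chr2:102901616-102901915, minus strand, match starting at -163 from the start site: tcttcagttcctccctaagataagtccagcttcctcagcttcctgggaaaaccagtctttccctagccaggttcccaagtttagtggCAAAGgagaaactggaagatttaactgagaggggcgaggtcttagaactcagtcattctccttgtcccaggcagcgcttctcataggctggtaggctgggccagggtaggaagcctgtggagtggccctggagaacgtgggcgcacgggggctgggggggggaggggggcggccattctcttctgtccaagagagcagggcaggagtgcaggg

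Among the targets, Cd44 was the 1 gene of the 10 whose groups did not overlap; over all 9913 tested genes this held for 6.05% in either direction and for 3.24% with DSS+CA higher. It encodes a hyaluronan receptor of crypt base cells that lymphocytes also carry, on chromosome 2 from 102811141 to 102901665 (ENSMUSG00000005087). Its levels were 17.7, 12.3, 9.51 and 13.5 CPM in DSS 1 to 4. In DSS+CA 1 to 4 they were 18, 18.7, 18.4 and 19.2 CPM. The DSS+CA libraries lay within a narrow band (SD 0.498, against 3.40 in DSS), and the gap to DSS 1 was small. The log2 fold change was 0.49 (SE 0.277, 95% interval -0.12 to 1.10, edgeR adjusted p = 0.771). The gap between the groups was absent with RLE scaling, where DSS reached 17.8 and DSS+CA began at 17.6 CPM, and with upper quartile scaling, where they were 17.8 and 16.7 CPM. Summed T and NK cell markers lay at 235 to 648 CPM in DSS and at 52.2 to 230 CPM in DSS+CA, opposite in direction to Cd44, with all 8 of the marker genes detected. Their part in the level of Cd44 was not tested. In bulk RNA, fewer cells of a type and less RNA per cell cannot be told apart.

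Myc encodes a transcription factor of cell growth and division, on chromosome 15 from 61985341 to 61990374 (ENSMUSG00000022346). It stood at 18.8, 11.2, 14.8 and 19.4 CPM in DSS 1 to 4. Across DSS+CA 1 to 4 it stood at 28.1, 17.1, 16.3 and 25.9 CPM. DSS+CA 1 and DSS+CA 4 were above all DSS libraries, and DSS+CA 2 and DSS+CA 3 lay within the range of DSS. For Myc the log2 fold change was 0.45 (SE 0.31, 95% interval -0.23 to 1.13, edgeR adjusted p = 0.874).

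Ccnd1 encodes cyclin D1, which drives cells out of the G1 phase of the cell cycle, on chromosome 7 from 144929931 to 144939869 (ENSMUSG00000070348). Its levels were 66.3, 34.0, 66.4 and 55.6 CPM in DSS 1 to 4. In the DSS+CA libraries they were 80.8, 71.6, 43.5 and 70.6 CPM. In DSS+CA, 3 libraries were above all of DSS, and DSS+CA 3 was below 3 of the 4 DSS libraries. Ccnd1 had a log2 fold change of 0.26 (SE 0.314, 95% interval -0.43 to 0.95, edgeR adjusted p = 0.968).

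Sox9 encodes a transcription factor of crypt progenitors that Paneth cells require, on chromosome 11 from 112782224 to 112787760 (ENSMUSG00000000567). It stood at 14.9, 5.80, 9.89 and 13.5 CPM in DSS 1 to 4, and at 16.3, 12, 7.26 and 14.9 CPM in DSS+CA 1 to 4. The groups overlapped across nearly their whole ranges, and DSS 2 and DSS+CA 3 were the lowest of their groups. Sox9 had a log2 fold change of 0.20 (SE 0.372, 95% interval -0.62 to 1.01, edgeR adjusted p = 0.996). It turned to -0.13 with the counted length as a covariate, and was -0.01 both without DSS 2 and without the 3 short-length libraries.

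Sox4, a related transcription factor of progenitor cells, lies on chromosome 13 from 28948919 to 28953713 (ENSMUSG00000076431). It stood at 23.0, 9.92, 10 and 14.5 CPM in DSS 1 to 4. Across DSS+CA 1 to 4 it stood at 19.8, 17.0, 5.93 and 17.5 CPM. DSS+CA 3 was the lowest of all 8 libraries and DSS 1 the highest. For Sox4 the log2 fold change was 0.07 (SE 0.416, 95% interval -0.85 to 0.98, edgeR adjusted p = 0.999). It turned to -0.40 with the counted length as a covariate, and was 0.33 without DSS+CA 3.

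Ephb3 encodes a receptor for ephrin-B ligands that helps to hold Paneth cells at the crypt base, on chromosome 16 from 21204755 to 21223305 (ENSMUSG00000005958). Its levels were 9.94, 5.64, 6.85 and 8.0 CPM in DSS 1 to 4, and 11.9, 7.59, 1.94 and 8.94 CPM in DSS+CA 1 to 4. DSS+CA 3 held 19 counts of Ephb3, against 74 to 225 in the other libraries, and the highest library was 6.12 times the lowest, the widest spread of the 10 genes. The group means were 7.61 ± 1.83 and 7.59 ± 4.17 CPM (SD, n = 4). In the fit with no filter the log2 fold change was 0.08 (SE 0.447, 95% interval -0.85 to 1.01, edgeR adjusted p = 0.976), turned to -0.56 with the counted length as a covariate, and was 0.39 without DSS+CA 3.

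**Figure D3:**
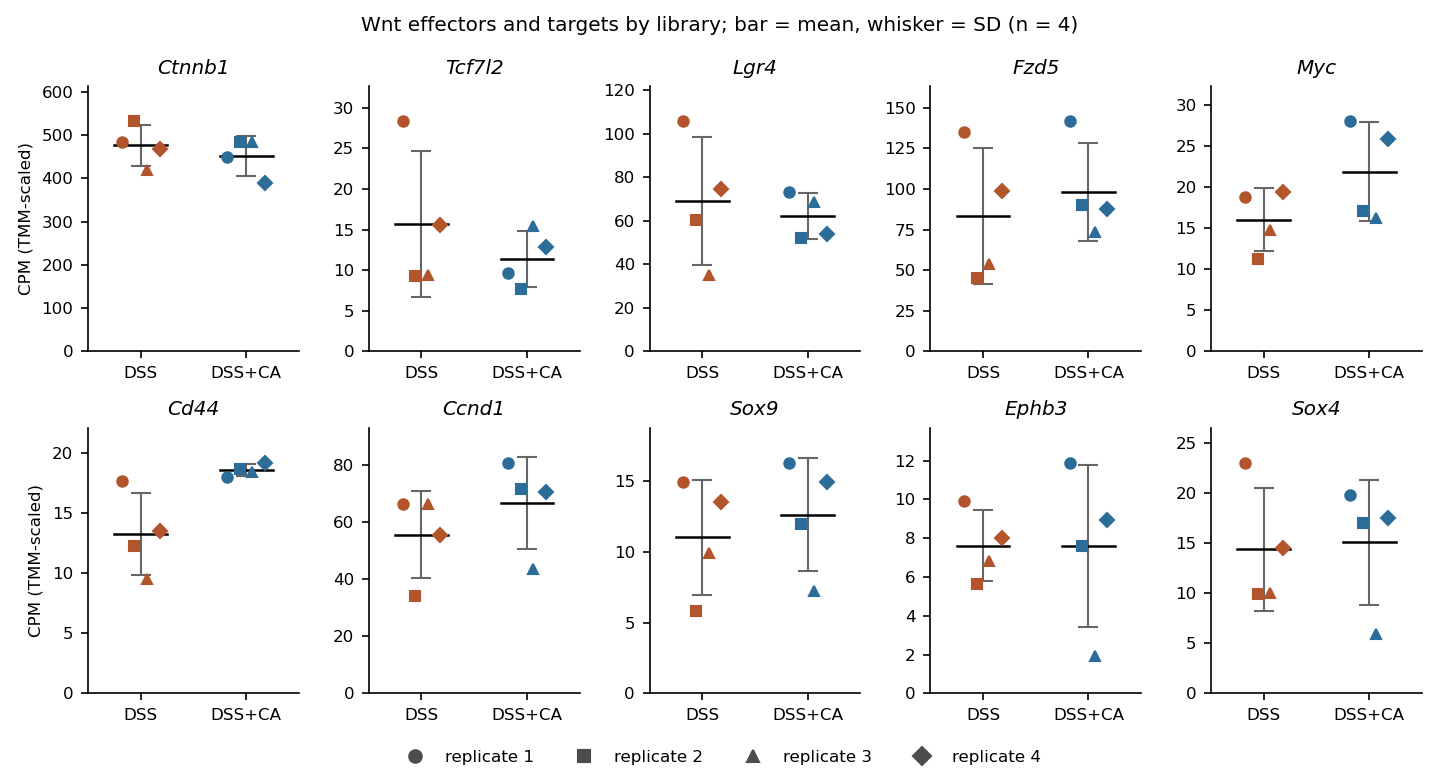
TMM-scaled CPM (y axis, from 0) of the 10 genes in the 4 DSS and 4 DSS+CA libraries, 1 panel per gene. Symbols mark the replicate number, bars the group mean and whiskers the SD. Cd44 is the only panel without overlap between the groups, and the replicate 3 library of DSS+CA lies lowest of its group for Myc, Ccnd1, Sox9, Ephb3, Sox4 and Fzd5.

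In 9 of the 10 genes the groups overlapped, and several genes were low or high in the same libraries. The lowest library was DSS 2 for 4 genes, DSS 3 for 2 genes and DSS+CA 3 for 2 genes, and these 3 are the libraries of shortest counted genes. The highest library was DSS+CA 1 for 5 genes and DSS 1 for 3 genes, the libraries of longest counted genes. Fzd5, Myc, Sox9, Ephb3 and Sox4 were lower in the short-length libraries than in the others within both groups. That held for 5 of the 10 genes and for 21.6% of all tested genes. Ctnnb1 did not follow that split, at a mean of 477 CPM in the short-length libraries of DSS and 475 CPM in the other 2. Of its DSS libraries, DSS 2 was the highest at 533 CPM and DSS 3 the lowest at 420 CPM. Lgr4 and Cd44 followed the split in DSS only, and Ccnd1 in DSS+CA only. Tcf7l2 followed it in DSS and reversed it in DSS+CA, with 15.4 CPM in the short-length library against a mean of 10.1 CPM in the others. Summed Paneth cell markers were 37000 and 38000 CPM in the short-length libraries of DSS and 5820 and 18000 CPM in the other 2, and 17400 CPM in DSS+CA 3 against 4420 to 8410 CPM in the rest of DSS+CA. Their part in the levels of the 10 genes was not tested.

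**Figure D4:**
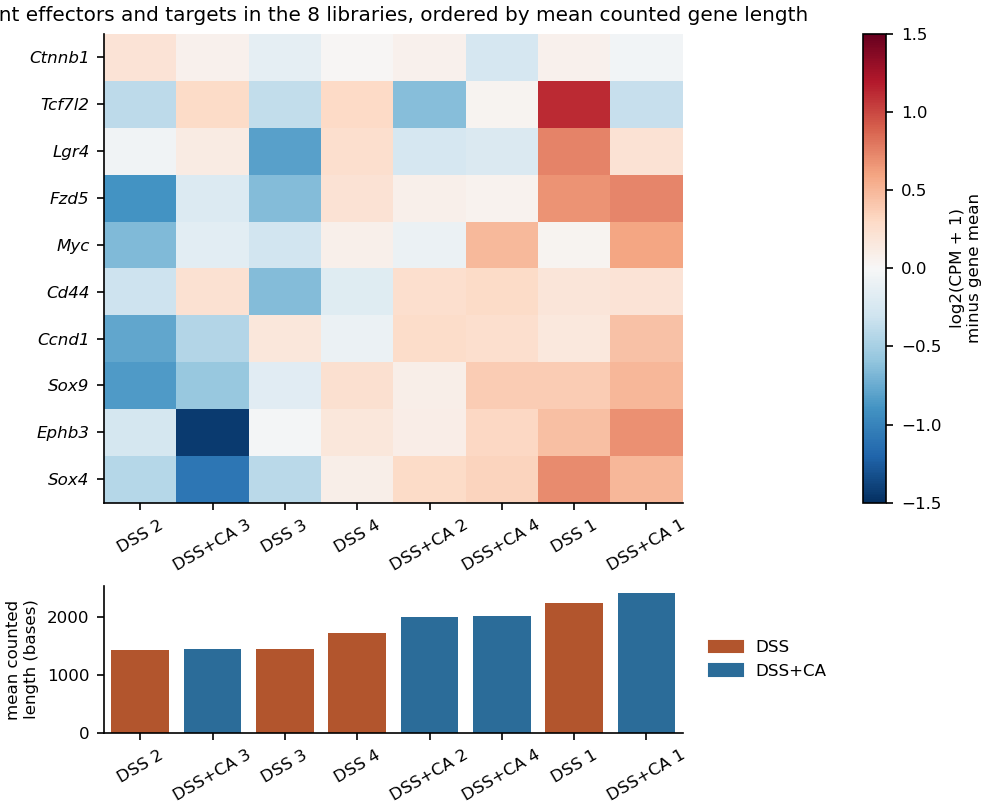
Upper panel, log2(CPM + 1) minus the gene's mean over the 8 libraries (color) for the 10 genes (rows) and the libraries (columns, ordered by mean counted gene length). Lower panel, that length in bases, in the colors of the groups. DSS 2 and DSS+CA 3, at the short end, lie below the gene mean for Fzd5, Myc, Ccnd1, Sox9, Ephb3 and Sox4. In DSS+CA 3 this is slight for Myc (-0.16) and Fzd5 (-0.206). Ctnnb1 runs from -0.251 in DSS+CA 4 to 0.208 in DSS 2.

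Likeness of pattern was measured as the root mean square difference of log2(CPM + 1) over the 8 libraries, each gene centred on its own mean. Among pairs of the 10 genes, Ccnd1 and Sox9 were closest at 0.206, followed by Myc and Sox9 at 0.225 and Ephb3 and Sox4 at 0.236. The least alike were Tcf7l2 and Ephb3 at 0.812. Among all tested genes, Ccnd1 was closest to Ccar2 (0.0524) and Ap1g2 (0.0546), Sox9 to Ccnk (0.0629) and Actn4 (0.0736), and Cd44 to Rab10 (0.0701) and Pphln1 (0.0820). Ctnnb1 was closest to Trim31 (0.0714) and Taf11 (0.0760), Lgr4 to Nrip1 (0.0765) and Fndc3a (0.0805), and Fzd5 to Sgpp2 (0.104) and Sec16a (0.110). Myc was closest to Nlk (0.117) and Ints7 (0.120), and Tcf7l2 to Maf (0.208) and Card6 (0.226). Wee1, a kinase that restrains entry into mitosis, was the second closest gene both to Ephb3 (0.146) and to Sox4 (0.123), after Naif1 (0.117) and Pacs2 (0.113).

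The other genes of the pathway were taken from 12 lists with 147 genes, of which 87 were tested. None passed the threshold in either direction, and 4 (4.6%) had an unadjusted p below 0.05, against 7.82% of all tested genes. DESeq2 was run over all genes as well, and Mxd1 was its only call among the genes named by the rule given below. That rule took the genes of smallest p in each list from these same data, so further calls of them are not separate evidence. The 5-library fit without DSS 2, DSS 3 and DSS+CA 3, which called 234 genes higher and 421 lower, also called Wls (-0.96), Slc12a2 (-1.21), Mxd1 (-0.92), Tfrc (0.92) and Srm (1.26).

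Upstream of the receptors, 2 of 16 genes for ligands, R-spondins and their secretion were tested, and both had lower means in DSS+CA. Wnt3 encodes a Wnt ligand that Paneth cells make. It stood at 5.00, 4.35, 7.83 and 5.47 CPM in DSS and at 3.01, 2.85, 1.23 and 3.82 CPM in DSS+CA, without overlap (log2 fold change -1.04, SE 0.397, edgeR adjusted p = 0.478). Wls encodes the carrier that brings Wnt ligands to the cell surface. It stood at 18.7, 42.9, 16.3 and 24.1 CPM in DSS and at 9.98, 10.1, 12.5 and 13.5 CPM in DSS+CA, also without overlap (-1.15, SE 0.348, edgeR adjusted p = 0.280). Paneth cell markers had a median log2 fold change of -1.56 over 7 tested genes, all below 0 and 0 past the threshold. Of these 7, 5 had an unadjusted edgeR p below 0.05, against 7.82% of all tested genes. The summed levels of these markers were 5820 to 38000 CPM in DSS and 4420 to 17400 CPM in DSS+CA. Their part in the levels of Wnt3 and Wls was not tested. The gaps between the groups of Wnt3, Wls, Csnk1a1, Max and Mxd1 were present with TMM, RLE and upper quartile scaling. They were absent in the deposited FPKM values. Over all 9913 tested genes, 6.05% had groups without overlap in either direction.

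Of the other receptors and their regulators, 6 of 15 were tested, with 4 above 0, a median of 0.14 and none past the threshold. The co-receptor gene Lrp5 was at 0.49 (SE 0.436) and the Frizzled gene Fzd4 at 0.47 (SE 0.42), both with an edgeR adjusted p of 0.933. Of secreted inhibitors and their receptors, 2 of 11 were tested and neither passed. Kremen1, a receptor for the inhibitor family DKK, was at 0.60 (SE 0.415), and the decoy gene Sfrp5, at 3.50 CPM or less in every library, was at -0.74 (SE 0.73).

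The destruction complex and Dishevelled list had 11 of 13 genes tested and none past the threshold. Its median was -0.09 with 4 genes above 0, but 0.17 with 10 above 0 on the log2(FPKM + 1) scale, where the median of all genes was also 0.17. Csnk1a1, casein kinase 1 alpha, which phosphorylates beta-catenin first, was at 223, 172, 124 and 170 CPM in DSS. It was at 231, 251, 299 and 261 CPM in DSS+CA, without overlap (log2 fold change 0.60, SE 0.282, edgeR adjusted p = 0.666). Tnks2, a tankyrase that marks axin for breakdown, was at 0.26. Among TCF factors and nuclear cofactors, 10 of 15 were tested, with 4 above 0, a median of -0.08 and none past the threshold, and on the log2(FPKM + 1) scale 6 lay above 0 with a median of 0.06. The corepressor genes Tle1 and Tle3 were at 0.55 (SE 0.297) and -0.62 (SE 0.427), and Tle3 was called with the counted length as a covariate (-1.08, edgeR adjusted p = 0.0349). That fit called 135 of the 9913 tested genes higher and 219 lower. All 4 cadherin and catenin partners lay above 0 with none past the threshold, among them E-cadherin, Cdh1, at 0.24 (SE 0.334) and alpha-catenin, Ctnna1, at 0.18 (SE 0.287).

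Other crypt Wnt targets had a median of -0.19, with 3 of 10 tested genes above 0 and none past the threshold. On the log2(FPKM + 1) scale that median was 0.01. Slc12a2, a sodium, potassium and chloride cotransporter of crypt cells, was at 265, 207, 61.2 and 198 CPM in DSS and at 120, 92.0, 93.9 and 94.4 CPM in DSS+CA. DSS 3 was the lowest of all libraries, so the groups overlapped (log2 fold change -0.87, SE 0.399, edgeR adjusted p = 0.647). Ascl2, a stem cell transcription factor, was at -0.37 (SE 0.428). Lgr5, an LGR receptor gene on this list, did not pass the expression filter. It stood at 3.58 to 11.5 CPM in DSS (mean 7.43) and 1.23 to 3.91 CPM in DSS+CA (mean 2.56), so the groups overlapped. Crypt base stem cell markers, which share genes with this list, had a median of -0.39, with 1 of 6 tested genes above 0 and none past the threshold.

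Among the Eph receptors and ephrins, 5 of 8 tested genes lay above 0, with a median of 0.13 and none past the threshold. Efnb2, a ligand of EphB receptors that differentiated cells carry, was at 65.0, 24.1, 27.5 and 36.9 CPM in DSS and at 83.9, 64.5, 44.1 and 55.8 CPM in DSS+CA (0.69, SE 0.364, edgeR adjusted p = 0.727). Only DSS 1 reached into the range of DSS+CA. Efna4 was at -0.61 (SE 0.461). Of the other Sox genes, 2 of 13 were tested and neither passed, with Sox6 at 0.41 (SE 0.375) and Sox13 at 0.01 (SE 0.38, negative in 8 of the 20 alternatives).

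Myc acts with the partner MAX, for which MXD proteins compete. Mxd1 was at 560, 469, 440 and 497 CPM in DSS and at 287, 300, 212 and 267 CPM in DSS+CA. The lowest DSS library was thus above the highest of DSS+CA (log2 fold change -0.88, SE 0.276, edgeR adjusted p = 0.297). It was called by DESeq2 (-0.92, adjusted p = 0.0248), with the counted length as a covariate (-1.0, 0.0181) and in the fit of the other 5 libraries without DSS 2, DSS 3 and DSS+CA 3 (-0.92, 0.0333). Over all tested genes, DESeq2 called 51 higher and 169 lower, the covariate fit 135 and 219, and the 5-library fit 234 and 421. Max itself was also lower without overlap, at 170 to 233 CPM in DSS and 132 to 162 CPM in DSS+CA (log2 fold change -0.361, edgeR adjusted p = 0.882). Such gaps occurred in 2 of the 7 tested partners and in 6.05% of all tested genes. Mxd4 was at -0.65 (SE 0.324), and of the 7 tested partners 5 lay below 0 and none passed in the edgeR fit of all 8 libraries with the group as its only term. On the log2(FPKM + 1) scale 3 of the 7 lay below 0. Genes known as Myc targets lay above 0 in 15 of 16 cases, with a median of 0.41 and none past the threshold, and in 15 or 16 of 16 under each other scaling. Over all tested genes, 51.9% lay above 0. All 16 lay above 0 only on the 2 FPKM scales, where the median of all genes was 0.17 and 0.22. The list was not counted with the counted length as a covariate or without the 3 short-length libraries. Tfrc, the transferrin receptor, was at 184, 402, 191 and 219 CPM in DSS and at 416, 357, 882 and 390 CPM in DSS+CA (1.04, SE 0.403, edgeR adjusted p = 0.496). DSS 2 lay within the range of DSS+CA. Tfrc was called with the counted length as a covariate (1.28, edgeR adjusted p = 0.0392). Srm, spermidine synthase, was at 0.95 (SE 0.434, edgeR adjusted p = 0.641).

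Cyclin D partners and inhibitors had 14 of 14 genes tested, 6 above 0, a median of -0.03 and none past the threshold. On the log2(FPKM + 1) scale 10 of the 14 lay above 0, with a median of 0.14. Ccnd2, cyclin D2, was at 196, 87.0, 88.0 and 144 CPM in DSS and at 295, 181, 108 and 221 CPM in DSS+CA (0.65, SE 0.386, edgeR adjusted p = 0.804). Cdkn1a, the cyclin-dependent kinase inhibitor p21, was at 0.56 (SE 0.347). Summed proliferation markers lay at 480 to 804 CPM in DSS and 523 to 688 CPM in DSS+CA, with 7 of 9 genes above 0 and none past the threshold.

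**Figure D5:**
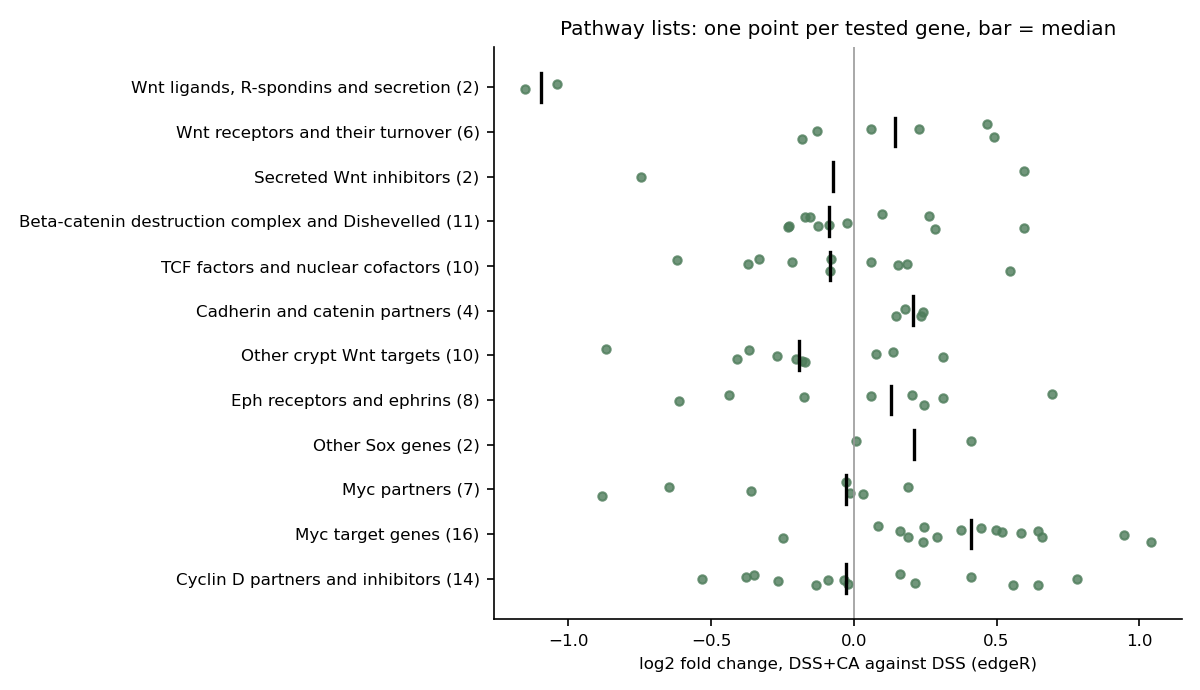
Log2 fold change of DSS+CA against DSS (x axis) of each tested gene in the 12 lists (y axis, number of tested genes in parentheses), with the list median as a bar. The points of most lists straddle 0, both ligand and secretion genes lie below -1, and 15 of 16 Myc target genes lie above 0.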

How the data were processed

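Per the labels' protocols, crypt RNA (RNeasy Micro kit, 200 ng) was made into libraries with the TruSeq Stranded Total RNA kit. HISAT2, StringTie, GRCm38 and mm10 are named without roles or versions, per the submitters' processing notes. Which tool counted, on which annotation and with which strand setting is not given in the sources used here. Each of the 8 deposited tables gives a raw count and an FPKM value for 34745 genes, per the file headers. The deposited FPKM values equalled the count over the library total and a length fixed per gene. Among 17718 genes counted in at least 2 libraries, that length agreed between libraries to 1% in 17718. No entry named anything other than a gene, and coordinates are those of the tables.

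Genes with a deposited FPKM of at least 1 in at least 4 libraries were tested with edgeR 4.0.16 (limma 3.58.1, R 4.3.3), using the quasi-likelihood test on counts, scaling by TMM, with no term besides the group. Tests were two-sided, with Benjamini-Hochberg adjustment over all 9913 genes. The SE is the absolute log2 fold change over the square root of F, and intervals use the t quantile of the test's total degrees of freedom, so both derive from the test. Alternatives were DESeq2 1.42.0, other scalings, filters and values, a replicate block, the counted length as a covariate and libraries left out; a filter on FPKM recomputed with merged exons was added after the data were seen. Merged exon lengths come from GENCODE M21 (GRCm38), which held 34344 of the gene IDs. Of 259 list symbols, 3 were not matched to 1 gene. Whether the same numbers in the titles pair the libraries is unknown, and the correlations in the closing section cannot decide it.

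On counts simulated for this comparison over the 9913 genes, edgeR recovered 2.99%, 85.1% and 97.0% of genes changed 2-, 4- and 8-fold, with 6 unchanged genes called. The 10 genes, the lists and the alternatives were chosen with earlier results of these data known. The naming rule was all 10 genes, up to 3 called genes per list and direction or else the 2 with the smallest p, and the 2 genes most like each of the 10. Genes named beyond it (markers, pairs and Max) serve as checks. Python 3.11.15, numpy 2.4.6, pandas 2.3.3, scipy 1.17.1 and matplotlib 3.10.9 made the tables and figures.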

Additional observations from a re-analysis of the deposited data

Results flagged for a closer look

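In each group of 4 libraries, the gap of the highest or lowest library to its nearest neighbour was divided by the group's range and compared with Dixon's 95% critical value. Chance passes about 1 in 20 groups. Of 68 groups over 34 genes, 3 passed, and none of them belonged to the 10 Wnt genes. Slc12a2 in DSS+CA had DSS+CA 1 far above the other 3 libraries (0.915). Tfrc had DSS 2 far above the rest of DSS (0.843) and DSS+CA 3 far above the rest of DSS+CA (0.888).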

How the results depend on the processing

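Of the 10 genes, 0 passed in the filtered fit and under every alternative to it, and Tcf7l2 passed in 1 fit with no filter, given above. Myc, Cd44 and Ccnd1 kept a positive sign in all 20 alternatives each (0.24 to 0.60, 0.22 to 0.66 and 0.04 to 0.46), and the other 7 changed sign in at least 1; the cause was not tested. With log2(FPKM + 1) and log2(FPKM + 0.1) in limma, which moved the median of all genes from 0.02 to 0.17 and 0.22, Ctnnb1 turned to 0.112 and 0.114 and Lgr4 to 0.104 and 0.129. With the counted length as a covariate, Fzd5 turned to -0.0325, Sox9 to -0.132, Ephb3 to -0.556, Sox4 to -0.399, Lrp5 to -0.0871 and Sox13 to -0.333. Without the 3 libraries of shortest counted genes, Fzd5 turned to -0.170, Sox9 to -0.00763, Sox4 to -0.0894, Tnks2 to -0.0314, Cdh1 to -0.0201, Ctnna1 to -0.00521 and Sox13 to -0.234. Upper quartile factors gave Ephb3 -0.0315, and DESeq2 and RLE factors gave Sox13 -0.0251 and -0.0252. With 1 library left out, values ran from -0.568 to 0.0506 for Tcf7l2, -0.373 to 0.128 for Lgr4, -0.013 to 0.384 for Sox9, -0.222 to 0.392 for Ephb3, -0.0908 to 0.389 for Sox4 and -0.200 to 0.257 for Sox13.

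Over all genes, 4 were higher and 9 lower. These became 51 and 169 with DESeq2, 7 and 20 with RLE factors, 8 and 19 without mitochondrial genes, 18 and 61 with no filter, 9 and 17 with log2(FPKM + 1), 5 and 15 with log2(FPKM + 0.1), 9 and 20 with the filter on merged exons, 135 and 219 with the length covariate and 234 and 421 without the 3 short-length libraries. With 1 library left out, 0 to 19 were higher and 4 to 65 lower; 0 were higher without DSS 1, DSS 2, DSS 4, DSS+CA 2 or DSS+CA 4, with 504 to 845 genes at an unadjusted p below 0.05 in those edgeR fits. The 19 and 65 came without DSS+CA 3. Same-numbered libraries did not all deviate together, with correlations of deviations from the group means of 0.780, -0.382, 0.106 and 0.226. Libraries of different number could deviate together as well, with 0.767 for DSS 2 and DSS+CA 3, which are both short-length libraries. These correlations therefore cannot decide whether the numbers pair the libraries. The replicate block gave 14 higher and 51 lower genes and turned Ephb3 to -0.103, with none of the 10 genes called.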
